A study of Homo sapiens with 16 samples.

Results

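The clustered protocadherins are cell surface proteins of the cadherin superfamily, and in the human genome their genes lie in 3 neighbouring clusters, alpha, beta and gamma, on chromosome 5. All rows of the deposited expression table were taken whose symbol was PCDHA, PCDHB, PCDHGA, PCDHGB, PCDHGC or PCDHAC followed by a number, which gave 54 of 40663 symbols: 16 of the alpha cluster, 16 of the beta cluster and 22 of the gamma cluster. By the GENCODE annotation of hg38 the alpha members lay at chr5:140786136-141012347, the beta members at chr5:141051374-141249365 and the gamma members at chr5:141330514-141512977. PCDHA14 matched the pattern but is annotated as a transcribed pseudogene. It was kept and lay near 0, with a mean of 0.4521 normalized counts over all libraries.

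RNA was sequenced from 16 cultures of Ccd18-Co, a human colon fibroblast cell line, in 4 groups of 4 cultures. By the titles the unstimulated group received no cytokines and later DMSO. The other 3 groups went through 3 pulses of a cytokine mix (10 ng/ml each of IL-17A, OSM and TNF, and 0.1 ng/ml of IL-1B), each pulse lasting 72 h and followed by 96 h without cytokines. The pulsed cultures then rested for 1 week. For 5 days they were exposed to DMSO alone (the vehicle group), to belinostat at 250 nM or to GSK-J4 at 10 µM. DMSO was diluted 1:5000 in all 4 groups, and RNA was taken 2 weeks later. Belinostat inhibits histone deacetylases and GSK-J4 inhibits demethylases of histone H3 lysine 27. Concentrations are those of the labels, and the study's own text gives partly other values for IL-1B and for both inhibitors. All cultures come from a single cell line and nothing in the labels ties them to separate experiments, so every p-value measures the spread between these cultures, which may be technical.

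Each clustered protocadherin carries an extracellular part of cadherin repeats that binds the same isoform on a neighbouring cell, and the mixture of isoforms is best known for marking single neurons and for keeping branches of the same neuron apart. In the alpha and gamma clusters each member has its own first exon and promoter, spliced to constant exons that all members of that cluster share and that encode a common cytoplasmic tail, whereas beta genes have no such constant exons. Variable members are switched on by promoter choice, with CTCF and cohesin joining a promoter to distant enhancers, while the C-type members (PCDHAC1, PCDHAC2, PCDHGC3, PCDHGC4 and PCDHGC5) are controlled apart from the variable members. Most variable promoters hold a conserved element with CGCT at its core.

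Whether the element goes with a change was not tested, and the promoters of 5 members named in the comparisons are printed here as examples. Each is the 250 bases before the RefSeq start in GRCh38.p14, on the plus strand and written 5′ to 3′, and capitals mark CGCT or its reverse complement AGCG. PCDHGC3 (chr5:141475716-141475965) is the C-type member that was lower with belinostat, and PCDHGA10 (chr5:141412737-141412986) is a highly expressed variable gamma member. PCDHB10 (chr5:141192103-141192352), PCDHB7 (chr5:141172394-141172643) and PCDHB2 (chr5:141094365-141094614) are beta members that were called lower with GSK-J4 than in at least 1 other group. In the fit of all 16 libraries that group was only unstimulated for PCDHB7 and only belinostat for PCDHB2.
PCDHGC3: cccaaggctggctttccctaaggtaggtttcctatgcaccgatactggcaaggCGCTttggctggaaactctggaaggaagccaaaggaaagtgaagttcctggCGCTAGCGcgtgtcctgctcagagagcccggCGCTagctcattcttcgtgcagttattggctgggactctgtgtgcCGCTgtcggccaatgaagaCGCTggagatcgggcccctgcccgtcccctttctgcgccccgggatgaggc
PCDHGA10: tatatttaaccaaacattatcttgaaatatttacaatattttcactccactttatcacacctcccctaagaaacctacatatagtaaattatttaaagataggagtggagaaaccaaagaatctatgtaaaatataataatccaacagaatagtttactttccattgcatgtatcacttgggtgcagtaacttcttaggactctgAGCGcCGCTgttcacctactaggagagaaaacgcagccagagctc
PCDHB10: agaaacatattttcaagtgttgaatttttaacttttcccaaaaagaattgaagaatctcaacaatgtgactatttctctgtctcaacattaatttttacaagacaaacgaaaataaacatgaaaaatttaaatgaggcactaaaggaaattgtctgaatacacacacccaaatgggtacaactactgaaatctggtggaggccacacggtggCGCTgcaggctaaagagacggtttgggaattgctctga
PCDHB7: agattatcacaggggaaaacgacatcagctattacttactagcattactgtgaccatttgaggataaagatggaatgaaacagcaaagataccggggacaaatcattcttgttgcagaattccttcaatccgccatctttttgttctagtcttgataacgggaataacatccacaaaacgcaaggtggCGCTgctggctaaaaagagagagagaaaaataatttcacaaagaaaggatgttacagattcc
PCDHB2: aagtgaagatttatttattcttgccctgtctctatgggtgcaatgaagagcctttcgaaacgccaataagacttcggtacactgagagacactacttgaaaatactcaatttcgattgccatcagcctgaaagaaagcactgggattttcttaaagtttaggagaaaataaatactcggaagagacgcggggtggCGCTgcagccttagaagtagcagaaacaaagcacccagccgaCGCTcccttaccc
The PCDHGC3 window was rich in G and C (60%) and held 6 matches, against 35.2% G and C and 2 matches for PCDHGA10. The beta windows shown were 36% (PCDHB10), 39.2% (PCDHB7) and 44.8% (PCDHB2) G and C, with 1, 1 and 2 matches. The window of PCDHB8, a beta member also called lower with GSK-J4 than in unstimulated cultures, is not shown and held 0 matches.

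RefSeq windows were found for 47 of the 54 members, in 52 windows. There were none for PCDHA3, PCDHA13, PCDHA14, PCDHB6, PCDHB11, PCDHGA12 and PCDHGC5. CGCT, on either strand, was in 50 of the 52 member windows (96.2%), while it was in 64.8% of all 35116 promoter windows of the same length. The member windows without it were those of PCDHA9 and PCDHB8. A longer form, GGCGCT on either strand, which contains CGCT, separated the clusters more: it was in 12 of 14 beta windows (85.7%), in 11 of 25 gamma windows (44%) and in 0 of 13 alpha windows, against 17.9% of all windows. These counts describe letters in the windows and not binding.

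Libraries held 14418942 to 19476420 estimated counts, and the members took 0.06075 to 0.07283% of them. Within a group the mean squared difference between a pair of libraries was 2.97 to 31.6 times that of counting noise, so none looked like the same library deposited again. Belinostat replicate 17 stood apart from the other belinostat libraries (26.5 to 31.6 times, against 3.69 to 4.7 times among the other 3), as did unstimulated replicate 1 from replicate 3 (31.3 times). The fibroblast label was matched by its markers: all 10 of the list, among them COL1A1, DCN and PDGFRA, were expressed, with sums of 467682 to 635053 normalized counts. Of the markers of other cell types KRT20, CD3E and SOX10, of epithelium, T cells and glia, were at 0 in every library, but others were expressed: KRT18 at 1098 to 2950, KRT8 at 346.7 to 504.1, the endothelial marker TEK at 7320 to 10136 and the monocyte marker CD14 at 30.18 to 247.3 normalized counts.

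The gamma cluster supplied most of the clustered protocadherin counts in these fibroblasts and the alpha cluster hardly any. Counts were scaled between libraries by size factors, and the scaled values are called normalized counts. By group the gamma cluster held 77.8 to 82.4% of the members' counts, the beta cluster 16.5 to 21.1% and the alpha cluster 1.09 to 1.2%. Averaged over all libraries, 42 of the 54 members reached 10 normalized counts, and 12 stayed below. The 42 were 5 of 16 alpha, 16 of 16 beta and 21 of 22 gamma members, PCDHGC4 being the gamma member below 10 (mean 7.217). Outside PCDHA2, PCDHA3, PCDHA4, PCDHA7 and PCDHA10, every alpha member had a mean below 10, and 4 were below 1.

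Per kilobase of the longest annotated transcript, PCDHGC3, a C-type member, was the highest (575 normalized counts per kb, mean of all libraries). It was followed by PCDHGB7 (393), PCDHGA10 (311) and PCDHGB6 (198), 3 variable gamma members whose first exons lie close together near the far end of the variable array. These 4 genes held 72.4 to 76.6% of the gamma counts by group. PCDHGA11, the variable member that follows PCDHGB7 along the chromosome, stood at 86.3 per kb. Among beta members PCDHB2 was the highest at 128 per kb, then PCDHB14 (67.4), PCDHB10 (66.5) and PCDHB13 (61.3), and PCDHB1, at the near end of the cluster, was the lowest at 1.41. The highest alpha member, PCDHA4, stood at 4.36 per kb, over a longest transcript of 1 exon and 10557 bases. PCDHA3 stood at 4.13, over 4 exons and 5404 bases, so values per kb depend on the transcript taken. The 4 highest genes have transcripts of 4758 to 4802 bases, so their normalized counts can be set side by side. Over all 16 libraries PCDHGB6 ran from 788.5 to 1107, PCDHGA10 from 1263 to 1644, PCDHGB7 from 1555 to 2080 and PCDHGC3 from 1826 to 3408. PCDHGB6 lay below the other 3 in every library, while the ranges of PCDHGA10 and PCDHGB7 met, and so did those of PCDHGB7 and PCDHGC3.

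**Figure D1:**
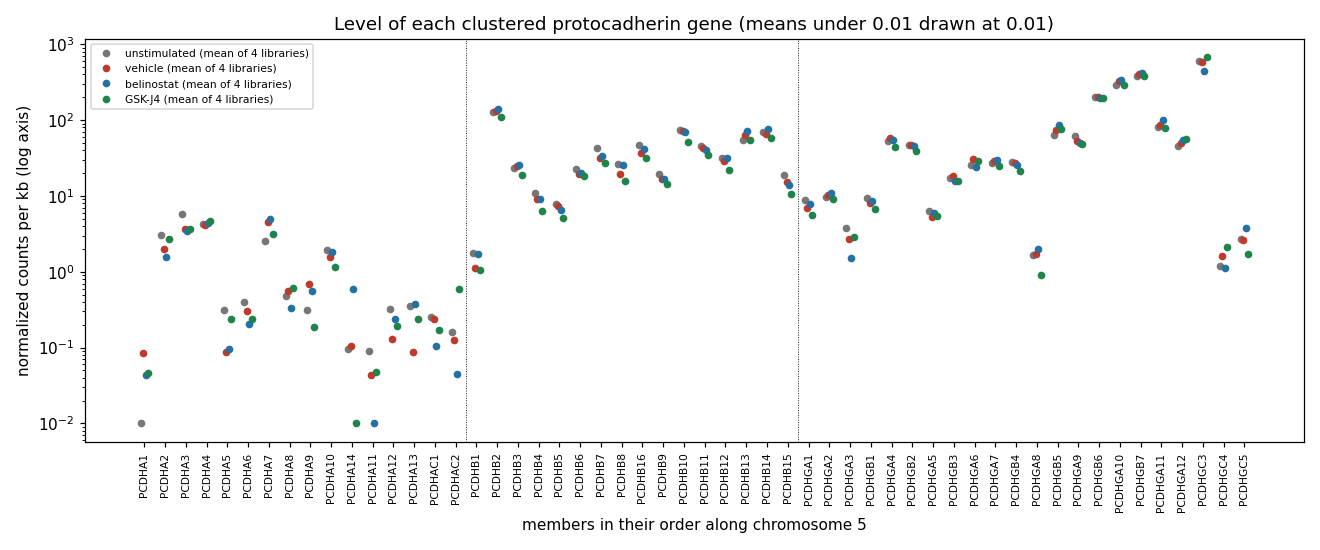
Mean normalized counts per kilobase of the longest transcript (log axis) for all 54 members in their order along chromosome 5, as 1 point per group, with dotted lines between the alpha, beta and gamma clusters. PCDHGC3 and the run from PCDHGB6 to PCDHGB7 stand highest, and most alpha members lie below 1 count per kb.

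The counts of single members are less certain than their size implies, because sequence is shared between them. All 15 coding alpha genes use the same 3 constant exons (59, 89 and 2721 bases) and all 22 gamma genes use another set (59, 89 and 2029 bases). The 31-base words of all annotated transcripts of a gene were compared with those of every other gene whose symbol starts with PCDH, member or not. The median share of words also found in another such gene was 56.1% for alpha, 20.8% for beta and 44.7% for gamma members. Reads made of such words are divided between genes by kallisto, the counting program. For members named below the share was 39% for PCDHGC3, 41.8% for PCDHB10, 60.2% for PCDHB2 and 55.9% for PCDHB8. Exons of annotated genes on the opposite strand overlapped 9 alpha, 9 beta and 1 gamma members, PCDHB2, PCDHB7, PCDHB10, PCDHB11 and PCDHB16 among them. The study's methods give default settings for kallisto, which do not use strand, so reads of such pairs cannot be told apart. The antisense partner of PCDHB2 in the table, PCDHB1-AS1, had at most 4.068 normalized counts in any library.

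Whether the cytokine pulses left a lasting mark on these genes was asked by comparing vehicle with unstimulated cultures. No member passed the test: DESeq2 called 0 of 44 members tested at an adjusted p under 0.05, edgeR called 0 as well, and 4 members had an unadjusted p under 0.05. Of all genes tested 1.74% were called. The median log2 fold change of the 42 members with a mean of at least 10 was -0.05 (0 over all 13886 genes at that level). Along the beta cluster 13 of 16 members lay below 0 with a median of -0.17, and in the gamma cluster 13 of 21 lay above 0 with a median of 0.07, while 51.4% of all genes lay below 0.

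PCDHB7, a beta member, came nearest to a call. Its normalized counts were 151.5, 144.2, 192.6 and 149.4 in unstimulated and 113.3, 138.9, 124.8 and 99.58 in vehicle cultures. The groups did not overlap, and the difference was -0.42 ± 0.15 (log2, SE) with an adjusted p of 0.132 in DESeq2. In all, 0 members were higher and 3 were lower without overlap between the 4 libraries of each group, among the 42, where 4.17% and 3.28% of all genes were. PCDHGC3 differed by -0.04, with a 95% interval of -0.20 to 0.13. PCDHGA10 differed by 0.15 (adjusted p = 0.33), and without unstimulated replicate 3 it was called higher, at 0.20 (adjusted p = 0.0351 in DESeq2). Of the 10 fibroblast markers LUM, a collagen-binding proteoglycan, was called higher in vehicle than in unstimulated cultures, at 0.36 (adjusted p = 0.0221 in DESeq2), but not by edgeR.

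Belinostat was compared with vehicle to ask what remained of the histone deacetylase inhibitor in pulsed cultures 2 weeks after it was washed out. PCDHGC3 was the 1 member of 42 tested that was called, and it was lower. DESeq2 called 0 members higher and 1 lower, where 3.12% and 3.13% of all genes tested were called, so that the share of members called was not above that of other genes. The median log2 fold change of the 42 members was 0.05, with 15 below 0, against 49.3% of all genes below 0. Without overlap between libraries 0 members were higher and 1 was lower, where 5.44% and 6.09% of all genes were.

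PCDHGC3 (ENSG00000240184.7, chr5:141475947-141512977) is the C-type gamma member found in many tissues. Its normalized counts were 2874, 2801, 2549 and 2842 in vehicle cultures and 1826, 2358, 2149 and 2143 with belinostat. Every belinostat library lay below every vehicle library and also below every unstimulated library (2755, 3139, 2443 and 3026). The change from vehicle was -0.39 ± 0.09 (log2, SE), a level 23.4% lower, with an adjusted p of 0.000304 in DESeq2. It was called under all 13 alternatives, with values from -0.44 to -0.32. The smallest of these left out belinostat replicate 17, the lowest library, and gave -0.32 (adjusted p = 0.00177).

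None of the other large gamma members was called. PCDHGB7 had normalized counts of 1922, 1920, 2016 and 1797 in vehicle and 2002, 1889, 1956 and 2080 in belinostat cultures. These ranges overlapped, and the difference of 0.05 had a 95% interval of -0.08 to 0.18. For PCDHGA10 it was 0.06 (-0.06 to 0.18) and for PCDHGB6 -0.06 (-0.28 to 0.15), neither of them called. PCDHGA11 was at 426.4, 449.4, 398.7 and 364.2 in vehicle and 485.9, 435.9, 501.7 and 489 in belinostat cultures. Only belinostat replicate 18 reached into the vehicle range, and the difference of 0.23 had an adjusted p of 0.0691, which became 0.0312 without vehicle replicate 14 and 0.0379 without belinostat replicate 18.

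As a share of the gamma counts PCDHGC3 held 28.6% ± 1.6 (SD, n = 4) in vehicle, 23% ± 1.4 in belinostat, 30.4% ± 3.7 in unstimulated and 33.4% ± 1.5 in GSK-J4 cultures. The ratio of PCDHGC3 to PCDHGB7, genes of nearly equal transcript length, was 1.45 ± 0.13 in vehicle and 1.07 ± 0.14 in belinostat cultures. PCDHGB7 was the higher of the pair only in belinostat replicate 17 (2002 against 1826, ratio 0.912), the library that stood apart from its group. Summed over the other 21 gamma members the counts were 6917 ± 243 in vehicle and 7068 ± 375 in belinostat cultures, ranges that overlapped. In the beta cluster 12 of 16 members lay above 0 (median 0.05), and PCDHB14 reached 0.22 (adjusted p = 0.21). Without belinostat replicate 17 PCDHB14 was called higher, at 0.29 (adjusted p = 0.045 in DESeq2).

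Markers of other cell types moved in the same libraries. Of 6 epithelial markers KRT8 (0.36, adjusted p = 0.000249) and KRT18 (0.84, adjusted p = 1.07e-05), keratins of simple epithelia, were higher with belinostat than with vehicle in DESeq2. The sum of the 6 ran from 1543 to 1949 normalized counts in vehicle, 1952 to 3449 in belinostat, 1594 to 1947 in unstimulated and 1471 to 1690 in GSK-J4 cultures, while EPCAM had at most 5.728 in any library and KRT20 was at 0. Of 6 neuronal markers STMN2, which regulates microtubules, was higher (2.25, adjusted p = 0.00026), and that list summed to 170.5 to 194.2 in vehicle, 205.1 to 257.8 in belinostat, 159.2 to 166.2 in unstimulated and 148.3 to 193.5 in GSK-J4 cultures. Of 5 endothelial markers TEK was called higher by DESeq2 and not by edgeR, with sums of 7703 to 8849 in vehicle and 8595 to 10165 in belinostat cultures, 7720 to 8377 in unstimulated and 7346 to 8083 in GSK-J4 cultures. Over the markers with a mean of at least 10 normalized counts, the median log2 fold change from vehicle was 0.60 for the 2 epithelial ones. It was 0.04 for the 3 neuronal and 0.18 for the 2 endothelial ones. The 5 leukocyte markers summed to 37.28 to 252 and the 5 glial markers to 4.825 to 21 over all libraries. Of the 10 fibroblast markers COL1A1, PDGFRA and FN1 were lower with belinostat than with vehicle (2 of them also by edgeR), and the sum of the 10 ran from 467682 to 553002 against 544847 to 585114. The part of these in the lower PCDHGC3 level was not tested, and in bulk RNA fewer cells of a type cannot be told apart from less RNA per cell.

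**Figure D2:**
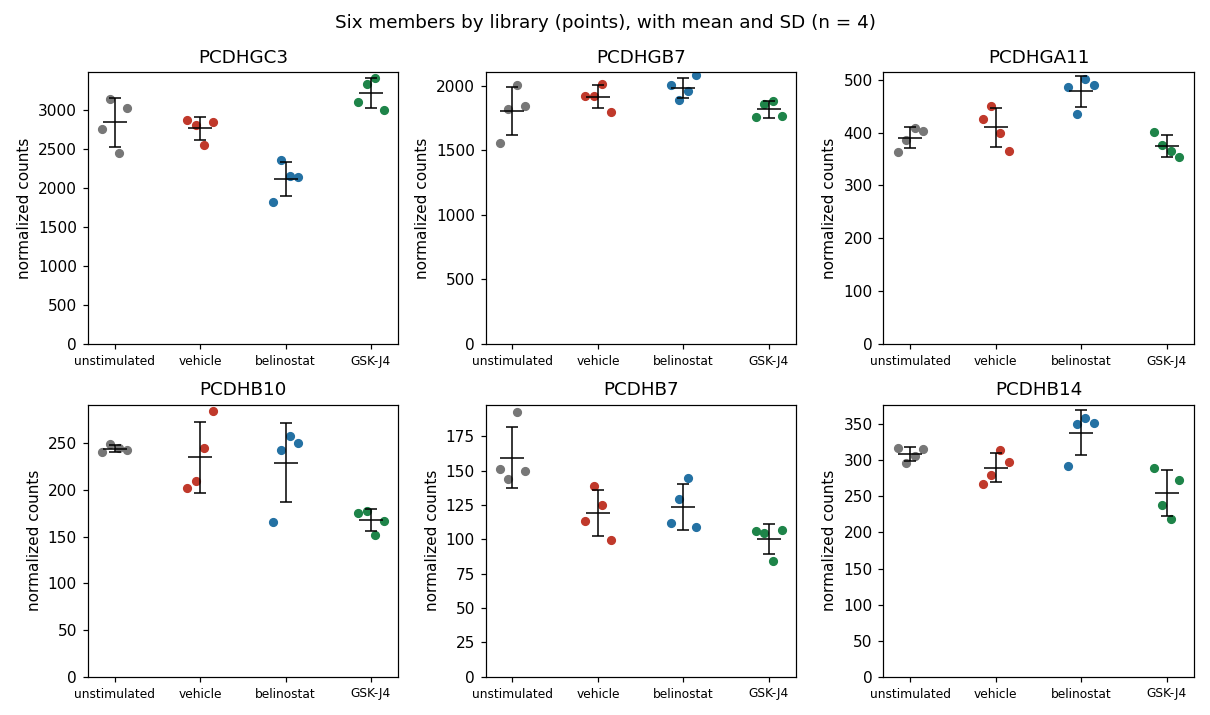
Normalized counts of 6 members in each library (points, linear axes from 0), with the mean and SD of the 4 libraries of each group. PCDHGC3 with belinostat lies below all other libraries (1826 to 2358), and PCDHB10 with GSK-J4 lies below every vehicle and unstimulated library (151.4 to 177.1).

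GSK-J4 was compared with vehicle in the same way. PCDHB10, a beta member, was called lower by DESeq2, and no member was called by edgeR. DESeq2 called 0 members higher and 1 lower of 37 tested, where 1.1% and 0.818% of all genes tested were called. All 16 beta members had a log2 fold change below 0, from -0.54 to -0.08 with a median of -0.28. In the gamma cluster 16 of 21 members were below 0 (median -0.15), and in the alpha cluster 3 of 5 (median -0.02). Over the 42 members the median was -0.22 and 35 lay below 0, against a median of 0 and 50.7% below 0 over all 13886 genes at this level. Without overlap between libraries 8 members were lower and 1 was higher, where 4.39% and 5.42% of all genes were, and 5 of the 8 were beta members.

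PCDHB10 (chr5:141192353-141195647) had normalized counts of 201.8, 209.8, 245 and 284.9 in vehicle and 176, 177.1, 151.4 and 166.7 in GSK-J4 cultures. All GSK-J4 libraries were below all vehicle libraries, and the change was -0.49 ± 0.14 (log2, SE) with an adjusted p of 0.0296 in DESeq2. The size held, from -0.52 to -0.38 under the alternatives that lost the call, but the call was fragile. It was lost with edgeR (adjusted p = 0.102), without independent filtering (0.0595), without vehicle replicate 15 (0.137) or 16 (0.213), and without GSK-J4 replicate 21 (0.0735), 22 (0.0767), 23 (0.176) or 24 (0.104).

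PCDHB2, the most abundant beta member, had normalized counts of 514, 525.1, 572.9 and 566.2 in vehicle and 437.3, 486.4, 453.1 and 445.5 in GSK-J4 cultures. The groups were apart, yet the change of -0.26 ± 0.10 had an adjusted p of 0.246. PCDHB11 was at 169.5 to 188.1 in vehicle and 132.1 to 154.6 in GSK-J4 cultures, and its difference of -0.31 had an adjusted p of 0.148. PCDHB13 was at 312.6 to 340.9 in vehicle and 255 to 300 in GSK-J4 cultures (-0.23, adjusted p = 0.684). These 3 genes were not called in the fit of all 16 libraries. When the vehicle and GSK-J4 libraries were fitted alone 4 members were called, 3 lower and 1 higher, with PCDHB2 (adjusted p = 0.0239) among the former and PCDHGC3 (0.00734) as the latter.

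PCDHGC3 stood on the other side. With GSK-J4 it had 3100, 3335, 3408 and 3002 normalized counts, each above the highest vehicle library (2874). The difference of 0.22 had a 95% interval of 0.05 to 0.38 and an adjusted p of 0.246. Among the other gamma members PCDHGA10 was at 1322 to 1500 with GSK-J4 and 1532 to 1598 with vehicle, without overlap, and its difference of -0.15 was not called either (adjusted p = 0.29).

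Summed over the beta cluster the normalized counts were 1998, 1974, 1783 and 1953 in GSK-J4 cultures and 2208, 2374, 2467 and 2326 in vehicle cultures. The GSK-J4 sums lay below those of all 12 other libraries, of which the lowest was belinostat replicate 17 at 2110. The means were 1927 ± 97.6 and 2344 ± 108 (SD, n = 4), and the beta share of all members' counts was 16.5% ± 0.81 with GSK-J4 and 19.3% ± 0.88 with vehicle. The sum describes the cluster and is not a test of its own. The fibroblast markers moved as well: COL1A2, COL3A1 and FN1 of the 10 were higher with GSK-J4 than with vehicle (1 of them, FN1, also by edgeR), and the sum of the list was 595392 to 635053 against 544847 to 585114. Their part in the lower beta sum was not tested. The gamma sums were 9614 ± 382 and 9684 ± 214 and overlapped, as did the alpha sums (129.3 ± 8.01 and 132.1 ± 13.9).

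**Figure D3:**
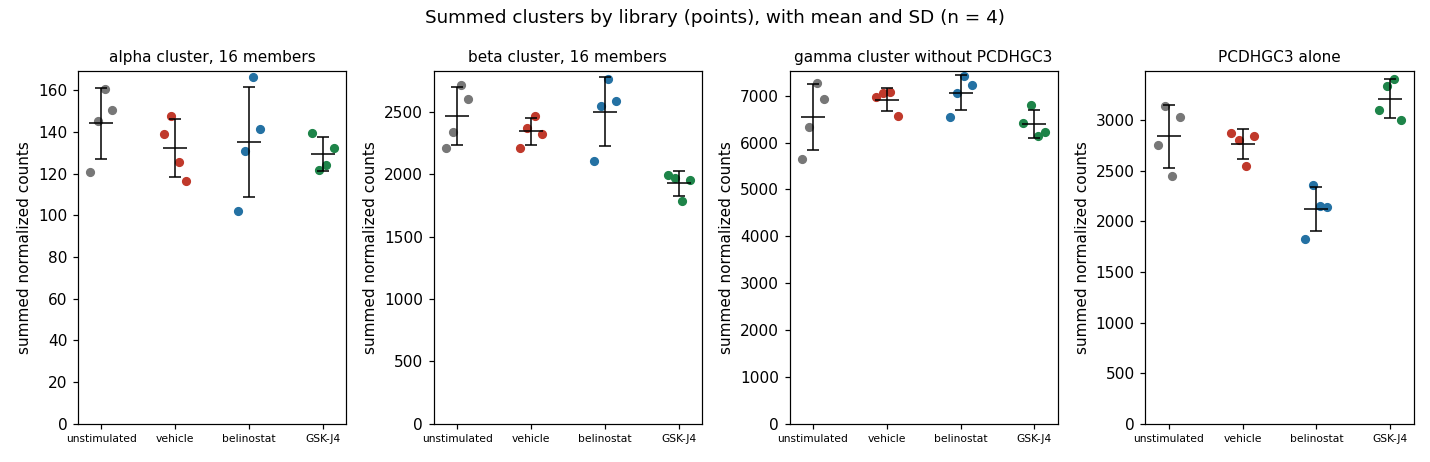
Summed normalized counts in each library (points, linear axes from 0), with mean and SD of 4 libraries, for the alpha cluster, the beta cluster, the gamma cluster without PCDHGC3, and PCDHGC3. The 4 GSK-J4 libraries are the lowest of all 16 in the beta cluster (1783 to 1998) and overlap the unstimulated libraries in the other panels.

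The inhibitors were then set against each other directly, which tests whether their effects differed. Of the members called PCDHGC3 was lower with belinostat and the others were higher. DESeq2 called 6 of 43 members higher with belinostat than with GSK-J4 and 1 lower, where 6.18% and 6.01% of all genes tested were called. The 6 were PCDHB2, PCDHB8, PCDHB10 and PCDHB14 of the beta cluster and PCDHGA10 and PCDHGA11 of the gamma cluster. All 16 beta members lay above 0, from 0.14 to 0.69 with a median of 0.40, and 16 of 21 gamma members did so with a median of 0.20. Over the 42 members the median was 0.28 and 8 lay below 0, against 49.6% below 0 over all genes. Without overlap 9 members were higher and 1 was lower, where 8.67% and 9.05% of all genes were. KRT8, KRT18, TEK and STMN2 of the marker lists were higher with belinostat here too and 5 of 10 fibroblast markers were lower, and their part was not tested. Over the markers with a mean of at least 10 normalized counts the median was 0.04 for the 2 endothelial and 0.44 for the 3 neuronal ones.

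PCDHGC3 was the member with the smallest p. The 4 belinostat libraries (1826 to 2358) lay below the 4 GSK-J4 libraries (3002 to 3408), a difference of -0.60 ± 0.09 (log2, SE), or 34% lower, with an adjusted p of 1.56e-10 in DESeq2. Under the alternatives it ran from -0.66 to -0.53 and was always called.

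PCDHB14 was at 292.1, 350.4, 359.3 and 352 with belinostat and at 288.9, 237.5, 218.4 and 272.5 with GSK-J4. The groups did not overlap, though belinostat replicate 17 lay close to GSK-J4 replicate 21, and the difference was 0.41 ± 0.10 with an adjusted p of 0.000896. It was called under all alternatives, as was PCDHGA11 (435.9 to 501.7 against 354.3 to 401.7, 0.35 ± 0.08, adjusted p = 0.000307). The remaining 4 calls were less firm. The groups overlapped for PCDHB2 and PCDHB10. Belinostat replicate 17 (463 and 166.1) lay within their GSK-J4 ranges (437.3 to 486.4 and 151.4 to 177.1). PCDHB2 (0.34, adjusted p = 0.0098) lost its call without belinostat replicate 19 (0.0696) or 20 (0.0721), and PCDHGA10 (0.20, adjusted p = 0.0113) without GSK-J4 replicate 23 (0.0733). PCDHB10 (0.45, adjusted p = 0.0165) lost it in 4 of 13 alternatives and PCDHB8 (0.69, adjusted p = 0.0297) in 7 of 13, with adjusted p-values up to 0.0874 and 0.107. Without belinostat replicate 17 the number of members called was 10, and PCDHB13 was among them (0.46, adjusted p = 0.0224 in DESeq2).

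**Figure D4:**
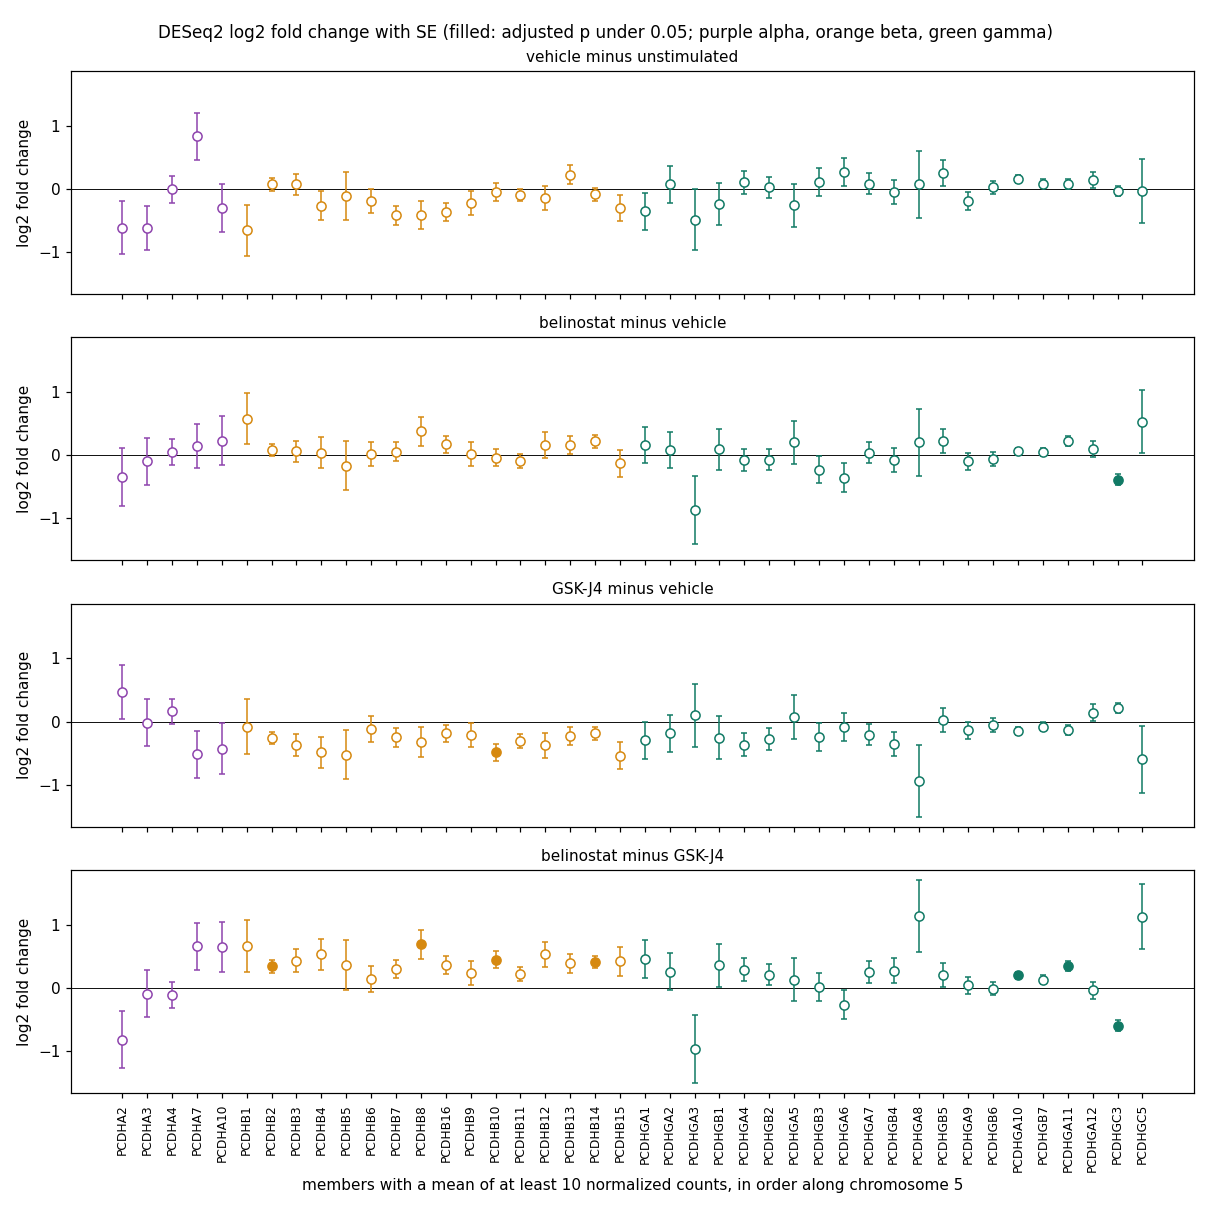
DESeq2 log2 fold changes with their SE for the 42 members that reached a mean of 10 normalized counts, in order along chromosome 5, for 4 comparisons (filled points have an adjusted p under 0.05). All 16 beta members lie below 0 for GSK-J4 minus vehicle and above 0 for belinostat minus GSK-J4, and PCDHGC3 has the sign opposite to theirs in both.

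Against unstimulated cultures, 7 beta members were lower with GSK-J4, while with belinostat PCDHGC3 was lower and PCDHGA10 and PCDHGA11 were higher. These comparisons reuse libraries of those above and are given for their values only. The groups compared differ by the cytokine pulses as well as by the inhibitor, which cannot be told apart here. For GSK-J4 against unstimulated DESeq2 called 0 members higher and 7 lower of 45 tested, where 3.18% and 2.37% of all genes tested were called. All 7 were beta members, PCDHB4, PCDHB7, PCDHB8, PCDHB10, PCDHB11, PCDHB15 and PCDHB16. All 16 beta members lay below 0, with a median of -0.53, and the median over the 42 members was -0.31 (-0.01 over all genes), with 35 below 0 (52.2% of all genes). Without overlap 10 members were lower and 0 were higher, where 5.88% and 7.5% of all genes were, and 8 of the 10 were beta members. Of the 10 fibroblast markers COL1A2, COL3A1, LUM and FN1 were higher with GSK-J4 than in unstimulated cultures by DESeq2 and by edgeR, the sum of the list being 595392 to 635053 against 530028 to 559402, and their part in the lower beta levels was not tested.

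PCDHB7 fell from 144.2 to 192.6 normalized counts in unstimulated to 84.32 to 106.9 in GSK-J4 cultures, without overlap. The change was -0.67 ± 0.15 (log2, SE), or 37.2% lower, with an adjusted p of 0.000429 in DESeq2. Its vehicle mean lay between (119.2), while the vehicle libraries (99.58 to 138.9) reached into the GSK-J4 range. Neither step, unstimulated to vehicle (-0.42, adjusted p = 0.132) or vehicle to GSK-J4 (-0.25, adjusted p = 0.654), was called. PCDHB16 was at 173.2 to 191.8 in unstimulated, 103.7 to 165.8 in vehicle and 108.8 to 142.3 in GSK-J4 cultures. Its means had the same order (181.3, 140.3 and 123.2), but the vehicle range spanned that of GSK-J4. With GSK-J4 it was 32.1% lower than in unstimulated cultures (-0.56, adjusted p = 0.00272). For PCDHB10 the vehicle (201.8 to 284.9) and unstimulated libraries (240.3 to 249.3) differed by -0.05 with a 95% interval of -0.32 to 0.21. Its GSK-J4 libraries lay lower than unstimulated (-0.54, adjusted p = 0.00363).

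PCDHB15 had the largest called change, from 55.01, 80.09, 87 and 80.06 in unstimulated to 51.87, 33.79, 31.49 and 50.31 in GSK-J4 cultures. The groups did not overlap, but unstimulated replicate 1 was only just above GSK-J4 replicate 21, and the change was -0.85 ± 0.22 (adjusted p = 0.00339). PCDHB11 changed least of the 7 (-0.41 ± 0.11, adjusted p = 0.00675). PCDHB7, PCDHB10, PCDHB11, PCDHB15 and PCDHB16 were called under all 13 alternatives. PCDHB4 (-0.76, adjusted p = 0.0425) and PCDHB8 (-0.74, adjusted p = 0.0316), which have the lowest counts with PCDHB15, each lost the call in 8 of 13, with adjusted p-values up to 0.22 and 0.163. PCDHB14 was lower without overlap and was not called (-0.28, adjusted p = 0.0774).

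For belinostat against unstimulated DESeq2 called 2 members higher and 1 lower of 42 tested, where 5.51% and 4.77% of all genes tested were called, a share near that of other genes. PCDHGC3 was lower by 25.4% (-0.42 ± 0.09, adjusted p = 3.35e-05), and by -0.36 without belinostat replicate 17 (adjusted p = 0.000274). PCDHGA11 was at 363.8 to 408.4 in unstimulated and 435.9 to 501.7 in belinostat cultures, without overlap (0.29 ± 0.08, adjusted p = 0.00507). PCDHGA10 was at 1263 to 1553 and 1581 to 1644, without overlap (0.20 ± 0.06, adjusted p = 0.0145), but its call was lost in 5 of 13 alternatives, among them a fit of the 2 groups alone (adjusted p = 0.128) and the fit without unstimulated replicate 1 (0.16, adjusted p = 0.0843). Leaving out belinostat replicate 17 or unstimulated replicate 3 raised the number of members called from 3 to 6 and 5. Without belinostat replicate 17 PCDHB13 (0.45, adjusted p = 0.0375) and PCDHB2 (0.25, adjusted p = 0.0367) were among those called higher in DESeq2. Without overlap 3 members were higher and 1 was lower, where 6.65% and 5.8% of all genes were. In the beta cluster the median was -0.14 with 11 of 16 members below 0 (50.4% of all genes), and DESeq2 called 0 (3 had an unadjusted p under 0.05). Of the marker lists KRT8, KRT18, TEK, STMN2, CD14 (1.45, adjusted p = 0.00109 in DESeq2) and LUM were higher with belinostat than in unstimulated cultures and FN1 was lower. Their lists did not all move with them. Over the markers with a mean of at least 10 normalized counts the median was -0.15 for the 2 endothelial ones. It was 0.29 for the 3 neuronal and -0.09 for the 10 fibroblast markers. The part of these markers was not tested.

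The 5 alpha members above the level of 10 normalized counts gave no call. PCDHA4, the highest, had 38.08 to 54.15 in unstimulated, 37.26 to 52.35 in vehicle, 40.1 to 51.78 in belinostat and 41.65 to 58.99 in GSK-J4 cultures, and these overlapped throughout. Its difference between GSK-J4 and vehicle was 0.16 with a 95% interval of -0.24 to 0.56. PCDHA7 ran from 11.72 to 15.02 in unstimulated and from 24.42 to 30.21 in belinostat cultures without overlap, and was not called (0.98). DESeq2 called 0 alpha members in any of the 6 comparisons, with 0 to 3 at an unadjusted p under 0.05.

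Genes around the clusters and their known regulators gave no call. Of 20 genes that flank the clusters or lie between them, 18 were tested, among them TAF7, a subunit of the general transcription factor TFIID, and HDAC3, a histone deacetylase. DESeq2 and edgeR called 0 of them in each of the 6 comparisons, 0 to 2 had an unadjusted p under 0.05, and the median log2 fold change stayed between -0.06 and 0.05. Of 17 known regulators, such as CTCF, the cohesin subunits RAD21 and SMC3, the silencing protein SMCHD1 and the DNA methyltransferases, all were tested and 0 were called by either tool, with 0 to 3 at an unadjusted p under 0.05. Of 10 proteins that cut clustered protocadherins or are kinases tied to their cytoplasmic part, PTK2B, a relative of focal adhesion kinase, was higher with belinostat than with GSK-J4 (0.34, adjusted p = 0.0435), also by edgeR.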

How the data were processed

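RNA from 16 cultures, 4 in each of 4 groups taken from the sample titles, was sequenced on a NextSeq500 after preparation with the NEBNext Ultra II RNA kit. The study's methods say that service providers prepared and sequenced the bulk RNA libraries. The authors deposited estimated counts per gene symbol for 16 libraries, which were not normalized. The submitters' processing notes name FastQC 0.11.9, MultiQC 1.14, kallisto 0.48.0 and hg38. The transcript set and how transcripts were summed to genes are not given in the sources used here. Estimated counts were rounded, and no column of samples was left unused (0). The column names of the unstimulated libraries carry no compound where the titles give DMSO, and columns were matched by replicate number.

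All genes were fitted with DESeq2 1.42.0, the tool named in the study's methods for bulk RNA, in R 4.3.3: all 16 libraries in 1 fit by group, median-of-ratios size factors, 2-sided Wald tests, independent filtering, Benjamini-Hochberg adjustment over all genes tested and a call at an adjusted p under 0.05. Intervals are 95% intervals of the fit. The 4 groups gave 6 comparisons, which share libraries. On simulated data of 16 libraries and 15123 genes, 200 were changed for belinostat against vehicle, by a log2 of 1 or 2 in either direction. DESeq2 recovered 198 and made 23 false calls (10.4% of its calls), and edgeR recovered 197 with 12 false calls (5.74%). The DESeq2 share was above the 0.05 set for the adjusted p. The changed genes were among the more highly expressed, and every called change of a member was smaller than those simulated. Recovery of changes of the members' size was thus not measured. Alternatives were edgeR 4.0.16 (quasi-likelihood, TMM scaling), DESeq2 with TMM scaling, after a filter of 10 counts in 4 libraries, without independent filtering, on the 2 groups compared, and without each library. The 54 members and the gene lists were chosen with earlier results of these data known. Named are members called in any comparison, the 5 highest of each cluster and, of the other lists, genes called against vehicle or in vehicle against unstimulated; PCDH9, PTK2B and the uncalled genes of those lists that are named were chosen after their values were seen. A call of 1 other gene of those lists is not reported here. Total counts per library (14418942 to 19476420) set the precision, and intervals do not cover the division of reads between members with shared sequence. Promoters came from RefSeq (GRCh38.p14) and gene positions from GENCODE on hg38.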

Additional observations from a re-analysis of the deposited data

Results flagged for a closer look

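In 92 groups of 4 libraries (the named members and the cluster sums), 7 had a highest or lowest library set apart from its group by more than Dixon's 95% limit, which chance passes in about 1 of 20 groups. Belinostat replicate 17 was the low library in 3 of them: PCDHB10 at 166.1 normalized counts (the others 243 to 257.8), PCDHB14 at 292.1 (350.4 to 359.3) and the summed gamma cluster at 8377 (9373 to 9576). Unstimulated replicate 3 was the high library for PCDHB7 at 192.6 (144.2 to 151.5) and PCDHB8 at 91.44 (62.73 to 66.39). In GSK-J4 cultures replicate 23 was low for PCDHB7 at 84.32 (104.4 to 106.9), and replicate 21 was high for PCDHB8 at 51.87 (38.91 to 40.88).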

How the results depend on the processing

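Of the main results, the PCDHGC3 calls for belinostat kept their direction and their calls under every alternative run, and the mean beta sum was lower with GSK-J4 (1903 to 1975) than with vehicle (2303 to 2389) whichever library was left out. The order of GSK-J4 and vehicle turned for the sums that overlapped: without GSK-J4 replicate 24 the mean gamma sum was 9741 against 9684 in vehicle, and without vehicle replicate 14 the mean alpha sum was 127 in vehicle against 129.3. With edgeR the genes called fell to 166 for vehicle against unstimulated and to 91 for GSK-J4 against vehicle. Members called for GSK-J4 against vehicle were 0 with edgeR, 0 without independent filtering and 4 when the 2 groups were fitted alone. That last setting called 542 genes for GSK-J4 against vehicle and 876 for belinostat against unstimulated. The cause of these moves was not tested. Leaving out each library in turn gave 0 to 1 members for vehicle against unstimulated (1 without unstimulated replicate 3), 1 to 2 for belinostat against vehicle (2 without vehicle replicate 14 or belinostat replicate 17 or 18) and 0 to 1 for GSK-J4 against vehicle (0 without vehicle replicate 15 or 16 or any GSK-J4 library). It gave 4 to 10 members for belinostat against GSK-J4 (4 without belinostat replicate 19 or GSK-J4 replicate 23) and 2 to 6 for belinostat against unstimulated (5 without unstimulated replicate 3, 6 without belinostat replicate 17). All genes called ran from 180 to 295 for vehicle against unstimulated (180 without unstimulated replicate 2) and from 132 to 193 for GSK-J4 against vehicle, with 132 to 162 when vehicle replicate 14 or 15, or any of the GSK-J4 libraries 21, 22 and 23, was left out. No paired analysis was possible because the groups share no replicate numbers.

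Uncalled log2 fold changes near 0 changed sign when a library was left out, and none was called. For vehicle against unstimulated these ran from -0.10 to 0.10 for PCDHA4, -0.16 to 0.01 for PCDHB10, -0.07 to 0.09 for PCDHGB6 and -0.10 to 0.01 for PCDHGC3. For belinostat against vehicle they were -0.11 to 0.49 for PCDHA10, -0.28 to 0.08 for PCDHA3, -0.02 to 0.14 for PCDHA4, -0.08 to 0.57 for PCDHA7, -0.11 to 0.09 for PCDHB10, -0.01 to 0.10 for PCDHB4 and -0.03 to 0.13 for PCDHB7. For GSK-J4 against vehicle they were -0.16 to 0.22 for PCDHA3 and -0.10 to 0.00 for PCDHGB6, and for belinostat against GSK-J4 -0.32 to 0.10 for PCDHA3 and -0.04 to 0.06 for PCDHGB6. For belinostat against unstimulated they were -0.42 to 0.18 for PCDHA10, -0.03 to 0.15 for PCDHA4, -0.16 to 0.04 for PCDHB10, -0.10 to 0.10 for PCDHB8 and -0.13 to 0.03 for PCDHGB6. For GSK-J4 against unstimulated they were -0.33 to 0.11 for PCDHA2, -0.14 to 0.10 for PCDHB13, -0.05 to 0.05 for PCDHGA10, -0.12 to 0.03 for PCDHGB6 and -0.06 to 0.06 for PCDHGB7. How large a change could be detected at the level of each member was not measured.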

Other observations

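Of 19 cadherins outside the protocadherins, 7 reached a mean of 10 normalized counts, and calls are by DESeq2 with n = 4 cultures per group. CDH13, which is held in the membrane by a lipid anchor, had 227.8 ± 9.46 normalized counts (SD) in unstimulated, 384.2 ± 12.2 in vehicle, 273.1 ± 66.8 in belinostat and 607.4 ± 27.7 in GSK-J4 cultures. It was thus higher in vehicle than in unstimulated (log2 fold change 0.75, adjusted p = 3.46e-07), lower with belinostat than with vehicle (-0.49, adjusted p = 0.00191) and higher with GSK-J4 than with vehicle (0.66, adjusted p = 8.04e-06). CDH11, a cadherin of mesenchymal cells, was lower with belinostat than with vehicle (-0.43, adjusted p = 1.94e-05), and CDH2, or N-cadherin, was higher (0.47, adjusted p = 0.0014). CDH6 was lower with GSK-J4 than with vehicle (-0.61, adjusted p = 0.00281), but not by edgeR.

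Of 11 protocadherins outside the clusters 4 reached a mean of 10 normalized counts. PCDH18 stood at 6219 ± 206 in unstimulated and 8535 ± 490 in vehicle cultures (0.46, adjusted p = 3.92e-07), and it was lower with GSK-J4 than with vehicle, at 7122 ± 180 (-0.26, adjusted p = 0.0273), though edgeR did not call it. PCDH9 was higher with belinostat than with GSK-J4 (0.95, adjusted p = 7.78e-05) and than in unstimulated cultures (0.89, adjusted p = 0.000291).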
